A study of Mus musculus with 6 samples.

Results

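Costimulatory and coinhibitory receptors of regulatory T cells (Treg) were examined here in mice that lack HDAC9, a class IIa histone deacetylase. The receptor genes are Ctla4, Cd28, Icos, Pdcd1, Lag3, Cd5, Klrg1, Cd83, Cd2 and Cd6. They were taken by gene symbol from the array annotation, which gave 12 probe sets for the 10 genes out of 22626 probe sets tested. Cd28 and Icos have a pair of probe sets and the other genes 1 each. RNA came from CD4+CD25+ T cells of 3 HDAC9-/- and 3 wild type samples, both on the C57BL/6 strain, isolated with magnetic beads and hybridised to 1 array per sample. The labels state neither age nor whether every sample is a separate mouse, and the p-values refer to the variation between samples alone. The comparison asks how the transcriptome of Treg without HDAC9 differs from that of wild type Treg. All values are log2 expression values from RMA (robust multi-array average), and differences are HDAC9-/- minus wild type.

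A T cell that meets antigen also reads signals from such receptors, and their balance sets how strongly it responds. Cd28 and Ctla4 bind the same ligands, Cd80 and Cd86, on antigen-presenting cells. Cd28 supports activation and the upkeep of Treg, while Ctla4, a target of the Treg factor Foxp3, binds the ligands more tightly and removes them from the other cell. Icos is a costimulatory receptor of the same family, and Pdcd1 (PD-1), Lag3, Cd5 and Klrg1 restrain signalling. In the gene order of mouse assembly GRCm38.p6, Cd28, Ctla4 and Icos follow each other directly, Cd6 follows Cd5, and Lag3 follows Cd4.

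The cells carried the transcripts that their labels call for. Foxp3 read 10.35, 10.33 and 10.44 in HDAC9-/- samples, against 10.35, 10.29 and 10.38 in wild type samples, and Cd4 read 9.75 to 9.91 in HDAC9-/- samples and 9.78 to 9.97 in wild type samples. Il2ra (CD25) read 9.42, 9.34 and 9.42 in HDAC9-/- samples, against 9.45, 9.46 and 9.54 in wild type samples. These Il2ra groups did not overlap, beside 18.2% of all genes, and the difference was -0.085 (limma, adjusted p = 0.712). Of 7 Treg markers, Foxp3 and Il2ra among them, 2 had positive and 5 negative differences. Hdac9 itself has 1 dim probe set, at 3.62 to 3.74 in HDAC9-/- and 3.50 to 4.10 in wild type samples. Which exons the mutant lacks is not stated in the labels, and this signal therefore checks nothing about the genotype. Wild type replicate 3 stood apart, with a mean correlation of 0.991 to the other arrays against 0.994 to 0.996 for the rest, and a median of 5.69 against 5.77 to 5.81. Gapdh control probe sets near the 3-prime end exceeded those near the 5-prime end, a sign of RNA integrity, by 0.15 to 0.28 in HDAC9-/- samples and by 0.026 to 0.11 in wild type samples. This gap did not overlap between the genotypes, whereas the same gap for actin did, at 0.42 to 0.60 in HDAC9-/- samples, against 0.33 to 0.46 in wild type samples. Their part in the receptor values was not tested.

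No difference between the genotypes was detected in any of the 12 receptor probe sets. With limma, 0 passed an adjusted p of 0.05, where 0.0133% of all probe sets did, and 0 had an unadjusted p below 0.05, where 8.78% of all probe sets did. As deposited, the values of the genotypes overlapped in 12 of 12, whereas 17.0% of all probe sets had groups that do not overlap. With array medians aligned, the Cd5 groups no longer overlapped, as described below. Overlap was not counted again on that scale for the other probe sets. Differences were above 0 for 7 and below 0 for 5, with a median of 0.010, beside a median of 0.0078 over all probe sets and 52.2% of them above 0. They ran from -0.24 (Pdcd1) to 0.35 (Lag3), and adjusted p from 0.580 to 0.980. All 12 had means, 7.16 to 11.56, above the median of all probe sets (5.76), so none was dim. Of the 11313 probe sets at or above that median, 2664 had groups that do not overlap, and 1264 an unadjusted p below 0.05 (limma). Differences were above 0 for 58.0% of these 11313, with a median of 0.027.

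**Figure D1:**
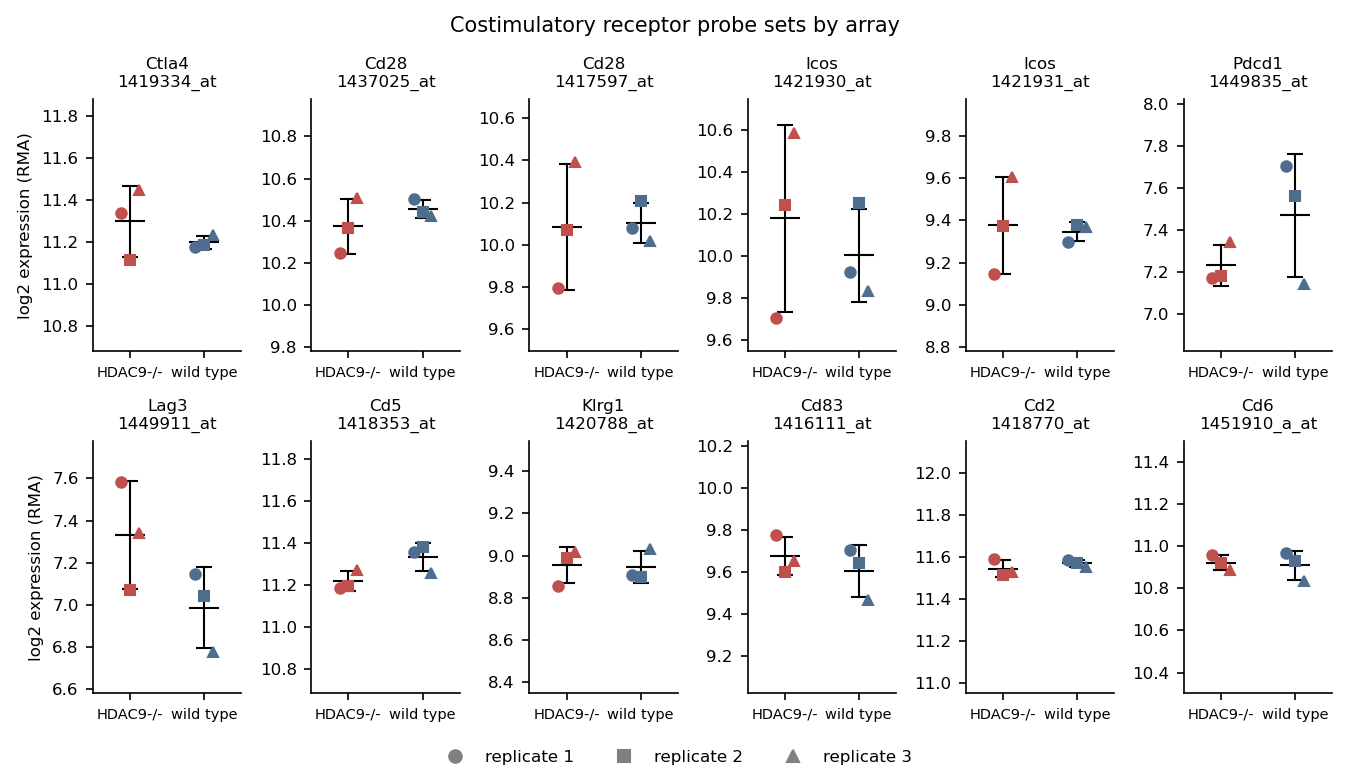
Log2 expression of the 12 receptor probe sets on each array, HDAC9-/- (red) left of wild type (blue), with the mean and SD of 3 arrays; every panel spans the same range of log2 units, and symbols mark the replicate number. In these deposited values the genotypes overlap in all 12 panels. The HDAC9-/- arrays lie farther apart than the wild type arrays for Ctla4, Cd28, Icos, Lag3, Klrg1 and Cd2, and closer together for Pdcd1, Cd5, Cd6 and Cd83.

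Ctla4, the inhibitory receptor that competes with Cd28 for ligand, was bright in every sample. It read 11.34, 11.11 and 11.45 in HDAC9-/- replicates 1 to 3, against 11.18, 11.19 and 11.23 in wild type replicates 1 to 3. The wild type values all lay inside the HDAC9-/- range. Its difference was 0.10 (standard error 0.097, limma, adjusted p = 0.762), and the 95% confidence interval of the fold ran from 0.914 to 1.26. Without HDAC9-/- replicate 2, the lowest array, the difference was 0.19 (adjusted p = 0.791), and without HDAC9-/- replicate 3, the highest, it was 0.026 (adjusted p = 0.957).

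Cd28, the receptor for the same ligands that supports activation, gave small differences in both probe sets. Its brighter probe set, 1437025_at, read 10.25, 10.36 and 10.51 in HDAC9-/- samples, against 10.50, 10.44 and 10.42 in wild type samples. The lowest and the highest of these 6 values were both HDAC9-/-. The difference was -0.081 (standard error 0.085, limma, adjusted p = 0.779, fold interval 0.822 to 1.09). Probe set 1417597_at read 9.79, 10.07 and 10.39 in HDAC9-/- and 10.08, 10.21 and 10.02 in wild type samples, a difference of -0.018 (standard error 0.15, adjusted p = 0.975).

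Icos, whose ligand Icosl sits on antigen-presenting cells and which marks activated Treg, had the widest spread of the receptors in its brighter probe set. Probe set 1421930_at read 9.71, 10.24 and 10.58 in HDAC9-/- samples, against 9.92, 10.25 and 9.83 in wild type samples. Again HDAC9-/- samples held both ends of the range. The difference was 0.18 (standard error 0.23, limma, adjusted p = 0.819), and its fold interval, 0.777 to 1.64, is the widest of the 12. In probe set 1421931_at the values were 9.15, 9.37 and 9.61 in HDAC9-/- and 9.30, 9.38 and 9.37 in wild type samples, a difference of 0.029 (standard error 0.12, adjusted p = 0.946).

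The 4 probe sets of Cd28 and Icos shared a pattern among the HDAC9-/- arrays. Replicate 1 had the lowest and replicate 3 the highest deposited value of all 6 arrays in each of them. For Cd28 1437025_at the lead was narrow, 10.509 against 10.503 in wild type replicate 1. HDAC9-/- replicate 3 was highest in 5 receptor probe sets as deposited and in 4 with aligned medians, where a wild type array was highest for Cd28 1437025_at. The pattern was not particular to Cd28 and Icos. Trat1, Pik3r1 and Vav1, from the cytoplasmic partners below, also were lowest in HDAC9-/- replicate 1 and highest in replicate 3 as deposited. The range over the HDAC9-/- arrays was 0.60 for Cd28 1417597_at and 0.88 and 0.46 for Icos 1421930_at and 1421931_at. The wild type ranges of the same probe sets were 0.19, 0.42 and 0.082. A wider HDAC9-/- range was also seen for Ctla4 (0.33 against 0.056), Cd28 1437025_at (0.26 against 0.082), Lag3 (0.51 against 0.37), Klrg1 and Cd2. For Pdcd1, Cd5, Cd6 and Cd83 the wild type range was the wider. Over all probe sets the median range was 0.18 among HDAC9-/- arrays and 0.23 among wild type arrays. Ctla4, which lies between Cd28 and Icos in gene order, was lowest in HDAC9-/- replicate 2 instead. Without HDAC9-/- replicate 1 the Icos 1421930_at difference was 0.41 (limma, adjusted p = 0.810) and that of Cd28 1417597_at was 0.13 (adjusted p = 0.847). Without HDAC9-/- replicate 3 they were -0.028 and -0.17, so the sign of both rests on single arrays. HDAC9-/- replicate 1 also had the highest summed signal of B cell markers, at 10.38 (log2 of the sum), with 10.18 and 9.65 in HDAC9-/- replicates 2 and 3. The same array had the highest dendritic cell sum, 11.37. It also had the largest gap between 3-prime and 5-prime control probe sets, 0.28 for Gapdh and 0.60 for actin. The part of other cells and of RNA integrity in the Cd28 and Icos spread was not tested.

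**Figure D2:**
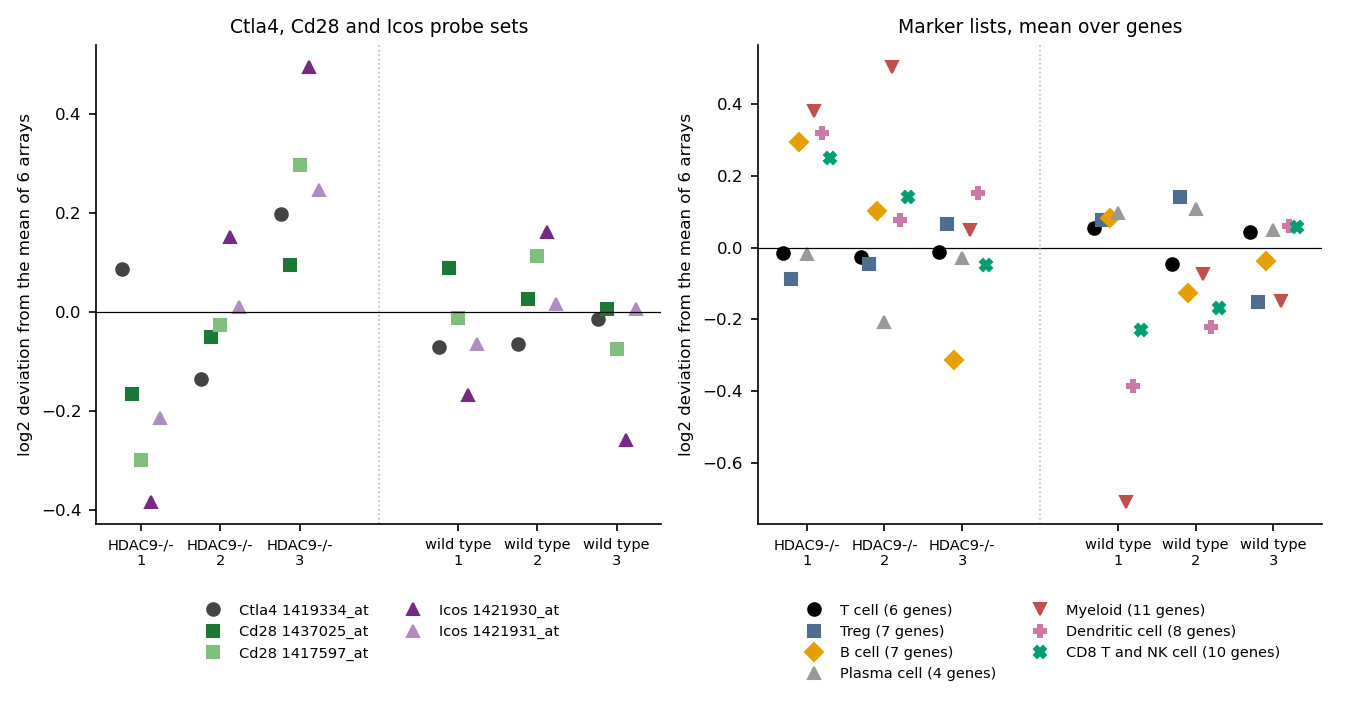
Deviation of each array from the mean of all 6, in log2 units, for the Ctla4, Cd28 and Icos probe sets (left) and for lists of cell type markers, averaged over genes (right). The 4 Cd28 and Icos probe sets are lowest in HDAC9-/- replicate 1 and highest in HDAC9-/- replicate 3, and the B cell list has the opposite order in these 2 arrays.

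Markers of other cells were read on the same arrays, since cells other than Treg also carry several of the receptors: Lag3 and Klrg1 also mark CD8 T and natural killer (NK) cells, Cd83 activated dendritic and B cells, and Cd5 a subset of B cells. Myeloid markers had positive differences for 11 of 11 genes, and their summed signal (log2) was 13.38 to 13.62 in HDAC9-/- against 11.91 to 12.90 in wild type samples. CD8 T and NK markers (8 of 10 positive) summed to 12.75 to 12.88 in HDAC9-/- samples, against 12.44 to 12.83 in wild type samples. Dendritic cell markers summed to 10.97 to 11.37 in HDAC9-/- and 10.30 to 11.11 in wild type samples (6 of 8 positive). For B cell markers the sums were 9.65 to 10.38 in HDAC9-/- samples, against 9.84 to 10.13 in wild type samples (5 of 7 positive). Plasma cell markers (1 of 4 positive) gave 12.12 to 12.28 in HDAC9-/- samples, against 12.57 to 12.60 in wild type samples. T cell markers summed to 14.21 to 14.22 in HDAC9-/- and 14.18 to 14.27 in wild type samples (1 of 6 positive). Treg markers, 2 of 7 of them positive, summed to 12.66 to 12.74 in HDAC9-/- samples, against 12.65 to 12.83 in wild type samples. The myeloid and plasma cell sums did not overlap between the genotypes, and the others did. Such sums rest mostly on the brightest genes, Jchain for plasma cells (means 11.52 in HDAC9-/- and 11.99 in wild type samples) and S100a8 and S100a9 for myeloid cells. By gene, Jchain and Xbp1 did not overlap, and Sdc1 and Prdm1 did. Ngp, S100a8, S100a9, Ltf and Cd68 did not overlap, and Lyz2, Csf1r, Fcer1g, Itgam, Cd14 and Adgre1 did. In the other lists Il2ra, Pax5, Itgax, Flt3, Ccl5 and Eomes did not overlap, and the remaining genes did. Over all genes, 18.2% did not overlap. No gene of these lists passed the adjusted threshold, and no marker reads 0 on this scale. In a bulk sample, fewer cells of a type and less RNA per cell cannot be told apart.

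Lag3, an inhibitory receptor that binds MHC class II, had the largest difference of the 12 probe sets. It read 7.58, 7.07 and 7.34 in HDAC9-/- samples, against 7.14, 7.04 and 6.77 in wild type samples. HDAC9-/- replicate 2 lay below wild type replicate 1, so the groups overlapped. The difference was 0.35 (standard error 0.15, limma, adjusted p = 0.580), and the fold interval ran from 0.987 to 1.64. Leaving out wild type replicate 3, the lowest array, gave 0.24, and leaving out HDAC9-/- replicate 1, the highest, gave 0.22. HDAC9-/- replicates 1 and 2 had the highest sums of CD8 T and NK markers, 12.87 and 12.88, beside 12.83 in wild type replicate 3. The part of such cells in the Lag3 values was not tested.

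Pdcd1, which encodes the inhibitory receptor PD-1, differed in the opposite direction. It read 7.17, 7.18 and 7.34 in HDAC9-/- samples, against 7.70, 7.56 and 7.14 in wild type samples. The HDAC9-/- values lay close together, and wild type replicate 3 lay below all of them. The difference was -0.24 (standard error 0.15, limma, adjusted p = 0.654, fold interval 0.665 to 1.08). Without wild type replicate 3, the array that stood apart from the rest, it was -0.40 (adjusted p = 0.283), and without wild type replicate 1 it was -0.12 (adjusted p = 0.783).

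**Figure D3:**
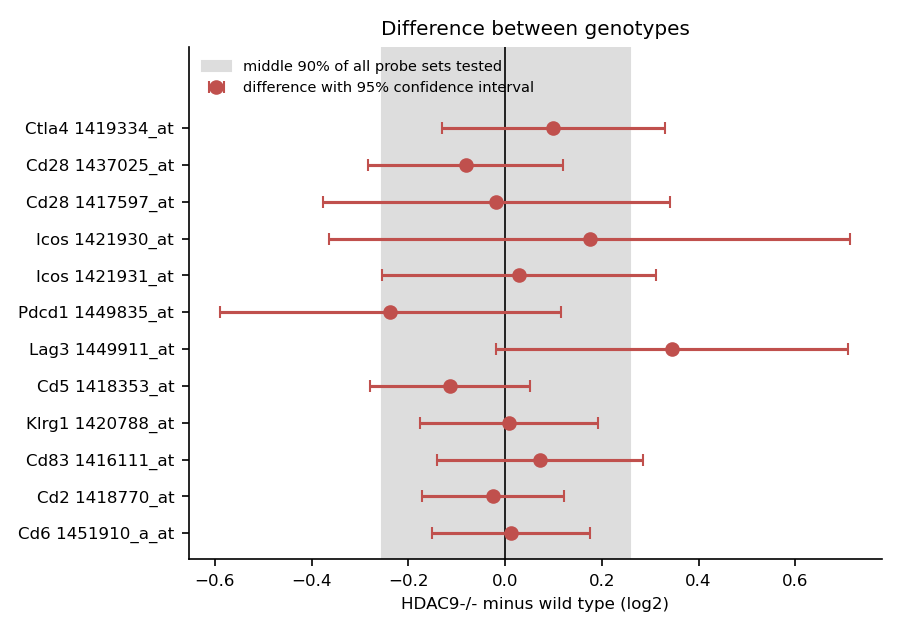
Difference between HDAC9-/- and wild type means (log2) of each receptor probe set, with its 95% confidence interval from limma; the grey band holds the middle 90% of the differences of all probe sets tested, -0.25 to 0.26. All 12 intervals include 0, and 11 of the 12 differences lie inside the band, Lag3 being outside.

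Cd2, Cd5 and Cd6 had the smallest standard errors of the 12 probe sets. Cd2, which binds Cd48 in the mouse and strengthens contact with other cells, read 11.59, 11.51 and 11.53 in HDAC9-/- samples, against 11.58, 11.57 and 11.55 in wild type samples. Its difference was -0.025 (standard error 0.062, limma, adjusted p = 0.907), with a fold interval of 0.887 to 1.09. Cd6, a scavenger receptor family member that binds Alcam, read 10.96, 10.92 and 10.89 in HDAC9-/- samples, against 10.97, 10.93 and 10.83 in wild type samples. All 6 Cd6 values lay within a narrow span, and the fold interval was 0.901 to 1.13 (adjusted p = 0.961). Cd5, the related receptor beside Cd6 that dampens T cell receptor signals, read 11.19, 11.20 and 11.27 in HDAC9-/- samples, against 11.36, 11.38 and 11.26 in wild type samples. In the deposited values the groups met at HDAC9-/- replicate 3 (11.271) and wild type replicate 3 (11.255). The latter array had the lowest median, 5.69 against 5.79 in HDAC9-/- replicate 3, and aligning the medians raises it against the others. Every aligned Cd5 value of HDAC9-/- samples then lies below every wild type value, so the groups do not overlap. The share of all probe sets without overlap was not counted on that scale. With aligned medians the Cd5 difference was -0.14 (limma, adjusted p = 0.708). As deposited, its difference was -0.11 (standard error 0.069, adjusted p = 0.646), and -0.15 without wild type replicate 3 (adjusted p = 0.501).

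Klrg1, an inhibitory lectin-like receptor of highly differentiated Treg, CD8 T and NK cells, had overlapping values in the genotypes. It read 8.86, 8.99 and 9.02 in HDAC9-/- samples, against 8.91, 8.90 and 9.03 in wild type samples. The mean difference was 0.0075 (standard error 0.078, limma, adjusted p = 0.980), and the fold interval was 0.885 to 1.14. Cd83, an activation marker of dendritic cells that activated Treg also carry, read 9.78, 9.60 and 9.65 in HDAC9-/- samples, against 9.70, 9.64 and 9.47 in wild type samples. The groups overlapped, and the difference of 0.072 (standard error 0.090, adjusted p = 0.811) had a fold interval of 0.907 to 1.22.

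Ligands of these receptors were measured in the same RNA, and 0 of 9 passed the adjusted threshold with limma, where 0.00807% of all genes did. Differences were above 0 for 7 of 9, with a median of 0.080, beside 0.013 over 1 probe set per gene and 54.0% of genes above 0. For 2 of the 9 the groups did not overlap, beside 18.2% of genes, and 1 had an unadjusted p below 0.05, beside 8.74%. Alcam, the ligand of Cd6, read 6.52, 6.48 and 6.47 in HDAC9-/- samples, against 6.12, 6.13 and 6.21 in wild type samples, a difference of 0.34 that did not pass (adjusted p = 0.362). The lower wild type values were also those of samples with less myeloid signal, whose part in Alcam was not tested. Cd48, the ligand of Cd2, differed by -0.12 without overlap (adjusted p = 0.632). Cd86, shared by Cd28 and Ctla4, differed by 0.16 (adjusted p = 0.656), and Fgl1, a Lag3 ligand, by 0.24 with dim signal in both genotypes.

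Of 11 measured genes for other co-signalling receptors, 0 passed the adjusted threshold (limma), 5 had differences above 0 and 6 below, and the median was -0.014. An unadjusted p below 0.05 was reached by 4, beside 8.74% of all genes, and the same 4 had groups that did not overlap, beside 18.2% of all genes. Cd160, a receptor of NK and T cells, read 7.77 ± 0.11 in HDAC9-/- and 8.14 ± 0.17 in wild type samples (SD, n = 3, difference -0.37, adjusted p = 0.461). Cd96, which binds nectin-family ligands, differed by -0.19 and the SLAM family receptor Cd84 by 0.18 (adjusted p = 0.549 each). Crtam, a receptor of activated CD8 T and NK cells, differed by 0.24 (adjusted p = 0.529). The HDAC9-/- samples with lower Cd160 had, on average, the higher CD8 T and NK marker signal, and the part of such cells was not tested.

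Molecules that act below the receptors or move them within the cell showed small differences. Of 23 measured genes, 0 passed the adjusted threshold and 0 had an unadjusted p below 0.05 (limma), with 11 differences above 0 and a median of -0.019. For 6 of the 23 the groups did not overlap, beside 18.2% of all genes, and these 6 had positive differences. Over all genes, overlapping or not, 54.0% had positive differences, and the share among genes without overlap was not counted. Lrba, which protects Ctla4 from degradation, read 8.29 ± 0.048 in HDAC9-/- and 8.14 ± 0.091 in wild type samples (SD, n = 3, difference 0.16, adjusted p = 0.598). Ap2m1, a subunit of the adaptor that takes Ctla4 into the cell, differed by 0.11 (adjusted p = 0.635). The kinase Akt1, activated by way of Cd28, differed by 0.13 (adjusted p = 0.614), and the phosphatase Ptpn6 by -0.14 (adjusted p = 0.625).

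**Figure D4:**
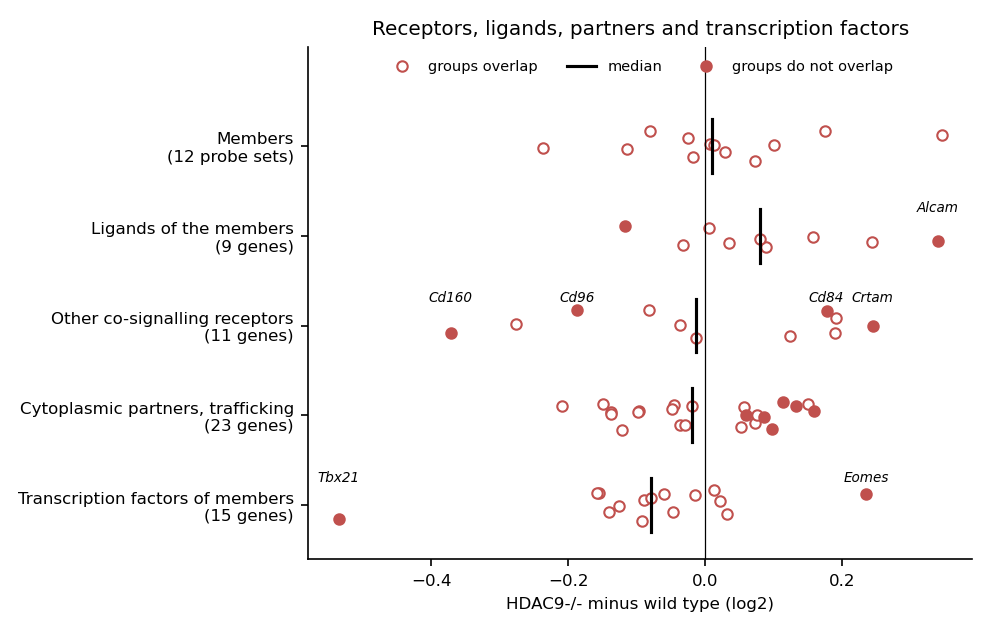
Differences between HDAC9-/- and wild type means (log2) of the 12 receptor probe sets and of 4 related gene lists, 1 probe set per gene; filled points have groups that do not overlap, bars are medians, and genes with an unadjusted p below 0.05 are named. No point passed the adjusted threshold, and in the deposited values the receptors hold no filled point.

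Among 15 transcription factors that act on receptor genes in T cells, 0 passed the adjusted threshold, and 4 differences were above 0, beside 54.0% of all genes, and 11 below, with a median of -0.079. An unadjusted p below 0.05 was reached by 2, beside 8.74% of all genes, which were also the 2 whose groups did not overlap, beside 18.2%. Tbx21 (T-bet), known to repress Pdcd1 in CD8 T cells, read 7.76 ± 0.068 in HDAC9-/- and 8.29 ± 0.19 in wild type samples (SD, n = 3, difference -0.54, limma, adjusted p = 0.398). Eomes, the related factor of CD8 T and NK cells, differed by 0.24 (adjusted p = 0.539). Nr4a1, a nuclear receptor induced by T cell receptor signals, differed by -0.16 (adjusted p = 0.614).

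The sample pattern of Ctla4 was set against 6920 other genes whose probe set was at least as bright as the median. Likeness was the root mean square difference, over the 6 arrays, between deviations scaled to the same SD. The nearest genes were Recql, a DNA helicase (0.12), Strada, a pseudokinase that activates the kinase LKB1 (0.13), and Sumf1, which encodes a sulfatase-modifying enzyme (0.18). Their differences between genotypes were 0.13, 0.038 and 0.11. Of the other receptor genes Lag3 came nearest (0.83), and Pdcd1 was farthest (1.42). These values describe the 6 arrays and carry no test.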

How the data were processed

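Each deposited value is the log2 expression of a probe set on an array, computed with RMA per the submitters' processing notes, which give no version or settings. RMA shrinks low signals, which understates differences of dim genes. The number of arrays limits the precision. Groups came from sample titles. The members and gene lists were chosen with earlier results of these data known.

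Of 22690 probe sets, 64 controls were set aside and 22626 tested, with no brightness filter. Names came from the platform annotation: 20380 carried 1 symbol, 691 several and 1555 none, and those with several or none stayed unnamed. Symbols were updated through Entrez identifiers for 20351. No genome build is stated for the array, and coordinates are left out. The genotypes were compared in limma 3.58.1 under R 4.3.3 (genotype alone, two-sided, Benjamini-Hochberg over all probe sets), checked on simulated data. Lists and markers used the brightest probe set of each gene, and genes with no probe set of their own were not analysed here, Btla, Cd226, Tigit, Tcf7 and Tox2 among them. The rule for named genes gave every receptor probe set, and from each list the 3 or 4 genes with the smallest unadjusted p. It also gave the 3 genes nearest to Ctla4 in sample pattern.

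Alternatives were repeated quantile normalization, aligned array medians, a filter on dim probe sets, a trended and robust prior, array weights, a block for the replicate number, leaving out each array, an adjusted p of 0.10 and 1 probe set per gene. Figures were drawn with matplotlib 3.10.9.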

Additional observations from a re-analysis of the deposited data

How the results depend on the processing

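No receptor probe set passed an adjusted p of 0.05 under any alternative tried, an adjusted p of 0.10 and 1 probe set per gene included. Apart from 1 probe set per gene, the lowest adjusted p was 0.283 (limma, Pdcd1 without wild type replicate 3). The count of receptor probe sets at an unadjusted p below 0.05, 0 in the reported fit, was 2 with the trended and robust prior (Lag3 and Cd5), 2 with array weights (Pdcd1 and Cd5) and 1 with the replicate block (Lag3). It was 0 to 1 leaving out 1 array. The labels do not say whether replicate numbers pair samples. Deviations of same-numbered arrays correlated at 0.036, 0.099 and -0.25, which cannot decide it with 3 arrays per group. A block for the number leaves fewer degrees of freedom for the error. With it 0 probe sets of the whole array passed, against 3 without it. That count was 15 with the trended and robust prior, 6 with array weights, 5 at an adjusted p of 0.10, and 0 to 6 leaving out 1 array. The median receptor difference ran from -0.026 to 0.039 leaving out 1 array, and was -0.016 with aligned medians. Of the 12 receptor differences, 7 kept their sign under all alternatives and 5 did not. Klrg1 turned to -0.0026 with quantile normalization and -0.018 with aligned medians, and ran from -0.024 to 0.056 leaving out 1 array. Cd6 turned to -0.013 with aligned medians and -0.016 with array weights, and ran from -0.026 to 0.041 leaving out 1 array. Leaving out 1 array also gave -0.17 to 0.13 for Cd28 1417597_at, -0.028 to 0.41 for Icos 1421930_at and -0.087 to 0.14 for Icos 1421931_at. The cause was not tested. Leaving out 1 array, Ctla4 ran from 0.026 to 0.19, Lag3 from 0.22 to 0.47, Pdcd1 from -0.40 to -0.12, Cd28 1437025_at from -0.15 to -0.019, Cd83 from 0.0036 to 0.12 and Cd2 from -0.047 to -0.0097. Cd5 ran from -0.15 to -0.089. The list medians ran from -0.014 to 0.16 for ligands, -0.024 to 0.024 for other co-signalling receptors, -0.016 to 0.045 for cytoplasmic partners and -0.093 to -0.020 for transcription factors, so the first 3 changed sign.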
